A study of Mus musculus with 2 samples.

Results

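The suppressors of cytokine signalling, or SOCS proteins, were examined as transcripts in cultured mouse CD4 T cells under a pathogenic and a non-pathogenic regime for Th17 cells, the helper T cells that make IL-17. The family has 8 genes, Cish and Socs1 to Socs7, and all 8 were found by gene name among the 22036 named genes of the count table. All 8 were also in the set of 10597 genes whose mean over both libraries was 1 CPM (counts scaled to library size) or more, called the genes tested here. Wild-type CD4 T cells, taken from spleen and lymph node, were stimulated for 24 h in wells coated with anti-CD3 (10 μg/mL) and anti-CD28 (5 μg/mL), with IL-6 at 20 ng/mL and neutralising antibodies to IFNγ and IL-4 in every culture. The culture labelled pathogenic Th17 also received 20 ng/mL activin A, and the culture labelled non-pathogenic Th17 received 2 ng/mL recombinant human TGFβ1. They are called the activin A library and the TGFβ1 library here. Each culture gave 1 library, the labels do not say how many mice were pooled, and no culture without activin A or TGFβ1 is analysed here. Every ratio therefore compares 2 libraries and has no replicate check, and the ranges beside folds are 95% intervals that cover counting error only.

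Cytokine receptors without an enzyme of their own signal through bound Janus kinases (JAKs), which phosphorylate the receptor and then STAT transcription factors. Several SOCS genes are transcribed in response to STATs, and the proteins act back on the same receptors and kinases, so the family is a feedback brake. Each protein has an SH2 domain that binds phosphotyrosine and a SOCS box that recruits elongins, a cullin and a RING protein to mark bound proteins with ubiquitin. CIS, SOCS1, SOCS2 and SOCS3 are the classical cytokine-induced members, while SOCS4 to SOCS7 have long amino-terminal regions and are better known from growth factor receptors. By sequence the closest relatives are CIS with SOCS2, SOCS1 with SOCS3, SOCS4 with SOCS5, and SOCS6 with SOCS7.

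Promoter sequences of 4 of the 8 members were at hand from RefSeq (GRCm38.p6, 250 bases before to 50 bases after the annotated start), those of Cish, Socs1, Socs3 and Socs4. They were searched for TTCNNNGAA, the palindromic core that STAT dimers are known to bind, which reads the same on both strands. The stretches that hold a match are shown because Cish, the member that differed most between the libraries, and Socs3, which differed least, both have a match. Each is 30 bases, written from 5′ to 3′ on the strand of the gene, with the matches in capitals.
Cish: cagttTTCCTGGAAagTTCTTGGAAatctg
Socs3: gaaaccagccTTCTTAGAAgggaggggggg
The Cish stretch lies on the plus strand at chr9:107296654-107296683 and holds 2 matches with 2 bases between them. The first match starts at the annotated RefSeq start itself, and both matches lie in an exon of the GENCODE transcript Cish-201, in its untranslated part. The Socs3 stretch lies on the minus strand at chr11:117969501-117969530, and its match starts 154 bases before the RefSeq start, in an intron of the longer transcript Socs3-202. No match was found in the windows of Socs1 and Socs4. Of 32851 windows of 300 bases, 8.30% held at least 1 match and 0.457% held at least 2. Neither TTCNNNNGAA, a match of which was present in 6.95% of windows, nor the SMAD palindrome GTCTAGAC, present in 0.213%, was found in the windows of the 4 members. A match describes letters only, and factor binding was not measured.

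Of the 8 members, Cish alone was at least 2-fold apart between the libraries, and it was higher in the activin A library. Across the genes tested, 4.20% were at least 2-fold apart, 2.25% with the activin A library higher and 1.95% with the TGFβ1 library higher. Cish was also the one member at least 1.5-fold apart, beside 13.0% of the genes tested, 7.20% in the direction of Cish and 5.76% in the other. With a trend on transcript length and GC content removed, these became 5.99% and 6.16%, and those at 2-fold 1.93% and 2.04%. Ratios were above 1 (higher in the activin A library) for 6 members and below 1 for Socs2 and Socs5, and 49.4% of all genes tested were above 1. Among the 6, the direction of Socs3 was not determined (log2 ratio 0.0029, interval −0.093 to 0.098). The interval of Socs4 started only just above a ratio of 1, at 0.0045 on the log2 scale. The median log2 ratio of the family was 0.14, with a range of −0.50 to 1.10, and that of all genes tested was −0.0045. The median distance from a ratio of 1 was 0.23 on the log2 scale for the members and 0.20 for all genes. Apart from Cish, each member lay within the central 90% of genes, which spanned log2 ratios of −0.63 to 0.70. In bulk RNA, a difference in the number of cells that transcribe a gene and a difference in transcript per cell cannot be told apart.

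**Figure D1:**
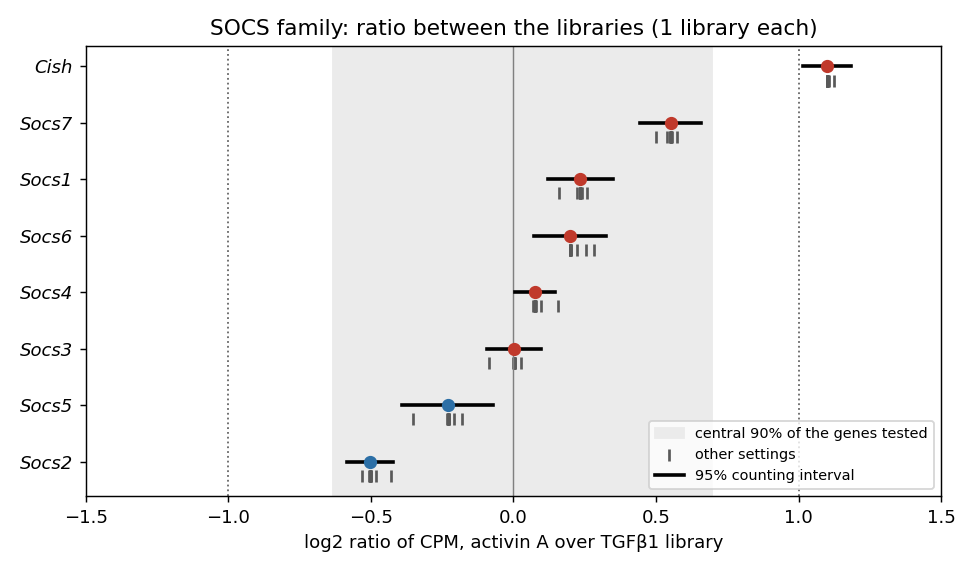
Log2 ratio of CPM (x axis, activin A over TGFβ1 library) for the 8 SOCS genes (y axis), 1 library per condition. Circles are the ratios, black bars 95% counting intervals, small grey ticks the values under other settings, dotted lines 2-fold, and the grey band the central 90% of the genes tested. Cish at 1.10 lies outside the band, and the other 7 genes, from −0.50 to 0.55, lie inside it.

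Cish (ENSMUSG00000032578, chromosome 9, 107296026 to 107302784, GENCODE M21) encodes CIS, which binds activated cytokine receptors and is a classical target gene of STAT5, the factor used by IL-2. It had 3428 counts, or 110.9 CPM, in the activin A library and 1727 counts, or 51.7 CPM, in the TGFβ1 library. The activin A library was thus higher by 2.14-fold (2.02 to 2.27). Of the genes tested, 98.1% had a lower ratio than Cish, and 3.51% were at least as far from 1 in either direction. The lower bound of the interval passed 2-fold narrowly, and it was 1.98-fold when counts were halved in case each fragment had been counted as a pair of reads. GENCODE places Gm17040 and Gm17041 over parts of Cish on the opposite strand. The labels describe no strand-marking step, so reads from these loci and from Cish cannot be told apart, and neither locus is among the named genes of the count table.

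Socs2 (ENSMUSG00000020027, chromosome 10, 95385362 to 95417180), the closest relative of Cish, encodes the protein best known for limiting growth hormone signalling and is likewise a STAT5 target. It had 2026 counts, or 65.5 CPM, in the activin A library and 3104 counts, or 92.9 CPM, in the TGFβ1 library. The difference ran opposite to that of Cish, with the TGFβ1 library higher by 1.42-fold (log2 ratio −0.50, −0.58 to −0.42). Of the genes tested, 7.76% had a lower ratio than Socs2, and 17.1% were at least as far from 1.

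The balance between Cish and Socs2 does not depend on how the libraries are scaled, since both genes are read in the same library. For each Socs2 count there were 1.69 Cish counts in the activin A library and 0.556 in the TGFβ1 library. The Cish to Socs2 ratio was 3.04 times as high in the activin A library (2.80 to 3.30). With the deposited FPKM values, which allow for transcript length, Cish stood at 1.32 times Socs2 in the activin A library and at 0.425 times Socs2 in the TGFβ1 library. Their order was therefore reversed between the libraries. The summed FPKM of the pair was 60.3 in the activin A and 53.5 in the TGFβ1 library, or 49.5% and 48.5% of the family's sum. The pair was thus a similar part of the family in both libraries, with a different make-up. These pair ratios were chosen after the members' values had been seen.

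Socs1 (ENSMUSG00000038037, chromosome 16, 10782240 to 10785536) encodes a direct inhibitor of JAK activity and the main brake on interferon γ signals. It had 1298 counts, or 42.0 CPM, in the activin A library and 1192 counts, or 35.7 CPM, in the TGFβ1 library. The activin A library was higher by 1.18-fold (1.09 to 1.27), and 44.5% of the genes tested were at least as far from 1.

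Socs3 (ENSMUSG00000053113, chromosome 11, 117966079 to 117970047) encodes the inhibitor that binds the shared IL-6 receptor chain gp130 and limits STAT3, the factor that drives Th17 differentiation. It had 1718 counts, or 55.6 CPM, in the activin A library and 1853 counts, or 55.4 CPM, in the TGFβ1 library. The log2 ratio was 0.0029, with an interval of −0.093 to 0.098, which reaches 1.07-fold in either direction. The deposited FPKM values were 19.1 in both libraries. Both cultures had received IL-6 at the same concentration. Of the genes tested, 99.2% were at least as far from 1 as Socs3.

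Within the Socs1 and Socs3 pair, the Socs1 to Socs3 count ratio was 0.756 in the activin A and 0.643 in the TGFβ1 library. It was 1.17 times as high in the activin A library (1.06 to 1.30). By FPKM, Socs3 was the higher of the pair in both libraries.

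Socs4 (ENSMUSG00000048379, chromosome 14, 47276931 to 47296102) and Socs5 (ENSMUSG00000037104, chromosome 17, 87107679 to 87137839) encode proteins linked to degradation of the epidermal growth factor receptor. Socs4 had 3245 counts, or 104.9 CPM, in the activin A library and 3330 counts, or 99.6 CPM, in the TGFβ1 library. The activin A library was higher by 1.05-fold (1.00 to 1.11), and with halved counts the interval started at 0.983 and included 1. Socs5 had 586 counts, or 18.9 CPM, in the activin A library and 743 counts, or 22.2 CPM, in the TGFβ1 library. The TGFβ1 library was higher by 1.17-fold (1.05 to 1.31). For Socs5 the counts and the FPKM values stood apart, with log2 ratios of −0.23 and −0.35. The transcript length implied by dividing counts by FPKM was 5185 bases in the activin A and 4703 bases in the TGFβ1 library for Socs5, a ratio of 1.10. For the central 90% of genes that ratio lay between 0.933 and 1.06. Gene-level values do not separate isoforms.

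Socs6 (ENSMUSG00000056153, chromosome 18, 88665224 to 88927481) encodes a protein that binds the receptor kinase KIT, and Socs7 (ENSMUSG00000038485, chromosome 11, 97362551 to 97398542) a partner of the adaptor NCK. Socs6 had 1068 counts, or 34.5 CPM, in the activin A library and 1005 counts, or 30.1 CPM, in the TGFβ1 library. The activin A library was higher by 1.15-fold (1.05 to 1.25). Socs7 had 1701 counts, or 55.0 CPM, in the activin A library and 1254 counts, or 37.5 CPM, in the TGFβ1 library. Socs7 had the second-highest ratio of the family, with the activin A library higher by 1.47-fold (1.36 to 1.58), just under the 1.5-fold mark. Of the genes tested, 92.0% had a lower ratio than Socs7. GENCODE places pseudogenes inside the Socs6 locus, AC122398.2 and AC122398.3 on the same strand and AC118614.1 on the opposite strand, and how reads there were assigned is not known. The Socs6 to Socs7 count ratio was 0.628 in the activin A and 0.801 in the TGFβ1 library. The Socs4 to Socs5 count ratio was 5.54 in the activin A and 4.48 in the TGFβ1 library.

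**Figure D2:**
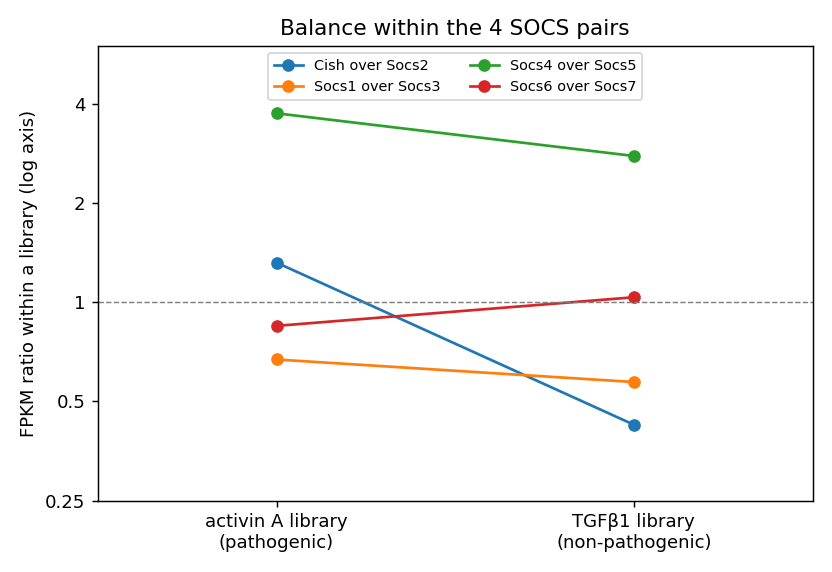
FPKM of the first over the second gene of each pair within a library (y axis, log scale), for the activin A and TGFβ1 libraries (x axis), 1 library each. The Cish to Socs2 line runs from 1.32 to 0.425 and crosses 1, while the Socs1 to Socs3 line (0.670 and 0.573) and the Socs4 to Socs5 line (3.75 and 2.78) stay on 1 side of it. The Socs6 to Socs7 line runs from 0.848 to 1.04 and also crosses 1, though the FPKM intervals of both genes overlapped in the TGFβ1 library.

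Levels were compared between genes with FPKM, since CPM favours long transcripts. In the activin A library Cish was the highest member at 34.3 FPKM, followed by Socs2 at 26.0, Socs3 at 19.1, Socs4 at 13.4 and Socs1 at 12.8. Socs7 at 6.87 FPKM, Socs6 at 5.82 and Socs5 at 3.57 were the lowest. The intervals of Socs4 (12.9 to 13.8) and Socs1 (12.1 to 13.5) overlapped, so their order there lay within counting error. In the TGFβ1 library Socs2 led at 37.6 FPKM, ahead of Socs3 at 19.1, Cish at 16.0, Socs4 at 12.7 and Socs1 at 10.9. Socs6 at 4.87 FPKM, Socs7 at 4.70 and Socs5 at 4.58 followed, with intervals that overlapped. Cish, Socs2 and Socs3 were thus the top 3 in both libraries. Socs1, also a classical cytokine-induced member, had a lower value than Socs4 in both, within counting error in the activin A library. Socs5 had the lowest value in both, within counting error of Socs6 and Socs7 in the TGFβ1 library.

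Set against all genes tested, the mean FPKM of Socs2 was above that of 78.4% of genes and that of Socs5 above 25.2%. Summed over the 8 genes, the level was 122 FPKM in the activin A and 110 FPKM in the TGFβ1 library. Without Cish the sums were 87.5 and 94.5 FPKM, so the direction of the summed FPKM turned with that gene, while the summed CPM without it was 376 and 373. Cish made up 28.2% of the family's FPKM in the activin A library and 14.5% in the TGFβ1 library. The share of Socs2 was 21.4% and 34.0%, and that of Socs3 15.7% and 17.3%.

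**Figure D3:**
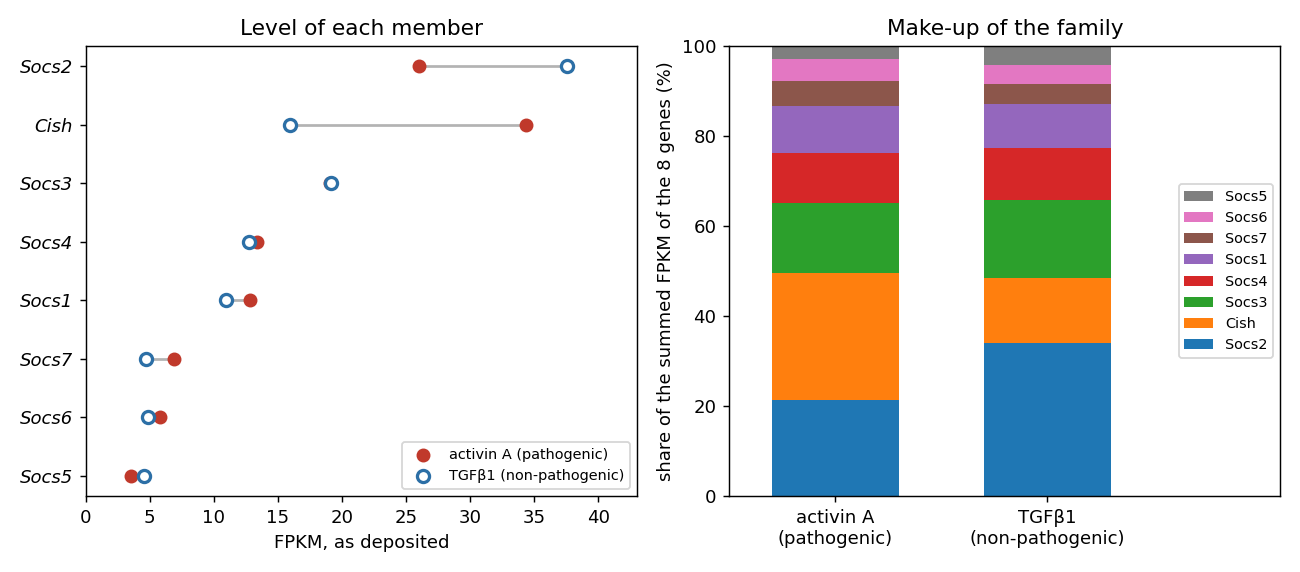
Left, deposited FPKM (x axis) of the 8 SOCS genes (y axis) in the activin A (filled) and TGFβ1 (open) library. The libraries are those labelled pathogenic and non-pathogenic. Right, share of each gene in the summed FPKM of the 8 (y axis, percent) by library. Cish and Socs2 lie far apart on the left and exchange the first place, and together they fill 49.5% and 48.5% of the bars on the right.

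Likeness to another gene could be judged from 2 libraries only, as the difference in log2 ratio among genes whose mean CPM was within 1.5-fold. Of 2223 such genes for Cish, the nearest was Pim1, a kinase gene that STAT3 and STAT5 induce, at a log2 ratio of 1.09 and a difference of 0.010. Next came Espl1, the separase gene, at 1.02, and Sec61b, a subunit gene of the endoplasmic reticulum translocon, at 1.02. Of 2241 genes at the level of Socs2, the nearest were Noct, Ubash3b and Serinc5, all at −0.50. Since 2 libraries give a single ratio per gene, a near match is no measure of a shared pattern.

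The other parts of the pathway were read from lists written with earlier results of these data known, so their counts are descriptions. They are to be read beside all genes tested, of which 49.4% had ratios above 1. Of those genes, 13.0% were at least 1.5-fold apart and 4.20% at least 2-fold apart in either direction. Upstream of the SOCS genes, 6 of 7 measured JAK-STAT cytokine genes had ratios above 1, with a list median of 0.92, and 2 of them were at least 2-fold higher in the activin A library. These were Il2, the growth factor that acts through STAT5, with 988 and 206 counts (5.16-fold, 4.46 to 6.05), and Lif, which signals through gp130, with 7458 and 3132 counts (2.57-fold, 2.47 to 2.68). Il10 alone of the 7 was at least 2-fold higher in the TGFβ1 library (2.21-fold, 1.83 to 2.69). Il9 (1.09-fold, 0.78 to 1.53) and Clcf1 (1.09-fold, 0.93 to 1.28) were among the 6 above 1, but their intervals included 1. Both were named after their values had been seen. Of 18 receptor genes, Il12rb2 (6.55-fold) and Il23r (3.69-fold) were past 2-fold, both higher in the activin A library, and Il12rb1 was at 1.87-fold in the same direction. The IL-2 receptor chains that CIS acts beside were close between the libraries, with log2 ratios of −0.15 for Il2ra, −0.030 for Il2rb and −0.13 for Il2rg, and were named after their values had been seen. Il6st, which encodes the gp130 chain that SOCS3 binds, was also chosen after its value was seen, at −0.59 (−0.62 to −0.55).

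No JAK gene was past 1.5-fold, with Jak2 at 1.35-fold higher in the activin A library, Jak1 at 1.16-fold and Jak3 at 1.10-fold higher in the TGFβ1 library. Of 7 STAT genes, Stat4 was past 2-fold (2.48-fold higher in the activin A library, 2.08 to 2.98). Stat3 was 1.26-fold higher in the TGFβ1 library. The 8 genes listed as partners of the SOCS box in marking proteins with ubiquitin were all within 1.5-fold, 4 on each side of 1. Elob at 1.42-fold and Nedd8 at 1.21-fold were higher in the activin A library, and Ube2f at 1.21-fold was higher in the TGFβ1 library. The list of other brakes on JAK-STAT signalling, such as PIAS proteins and phosphatases, had 15 measured genes. None of them was past 1.5-fold, beside 13.0% of the genes tested. Their median distance from a ratio of 1 was nevertheless larger than that of all genes tested, at 0.27 against 0.20 on the log2 scale. The farthest were Pias3 (1.26-fold) and Ptpn11 (1.24-fold), higher in the activin A library, and Pias2 (1.25-fold), higher in the TGFβ1 library.

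Of 13 other measured SOCS-box genes, 6 were above 1 and 7 below, and without Asb2, which reached 1 CPM only through the activin A library, 5 of 12 were above 1. Spsb1, which encodes an adaptor with a SPRY domain in place of the SH2 domain, had 551 and 1743 counts and was 2.92-fold higher in the TGFβ1 library (2.66 to 3.23). Rab40c was 1.40-fold higher there. Asb2 had 80 counts in the activin A library and was listed at 0 in the TGFβ1 library. With 3 counts put in place of that 0, the activin A library was 28.8-fold higher, and the lower bound of the counting interval was 22.9-fold.

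Downstream genes known to be induced by IL-2 and STAT5, listed without the members, had ratios above 1 for 10 of 12, with a median of 0.38. Pim1 was past 2-fold (2.13-fold, 2.03 to 2.24), and Osm (1.90-fold) and Gadd45b (1.75-fold) followed. Socs2, also a STAT5 target, had a ratio below 1, as had Il2ra and Il2rb in the list. The list of IL-6 and STAT3 induced genes had 9 of 16 above 1, near the share of all genes. Pim1, which stands in this list too, was its one gene past 2-fold, with Il21 at 1.91-fold higher in the activin A and Rora at 1.90-fold higher in the TGFβ1 library. The list of interferon-induced genes had 8 of 15 above 1, also near that share, with Psmb8 (1.94-fold) and Gbp5 (1.82-fold) higher in the activin A and Irgm1 (2.05-fold) higher in the TGFβ1 library. Both lists spread wider than all genes tested, with median distances from a ratio of 1 of 0.42 and 0.31 on the log2 scale against 0.20. Past 1.5-fold with the activin A library higher were 3 genes of the IL-6 list and 4 of the interferon list, beside 7.20% of the genes tested. In the other direction there were 3 and 2, beside 5.76%. Socs3 and Socs1, the members named with these signals, lay at log2 ratios of 0.0029 and 0.23.

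**Figure D4:**
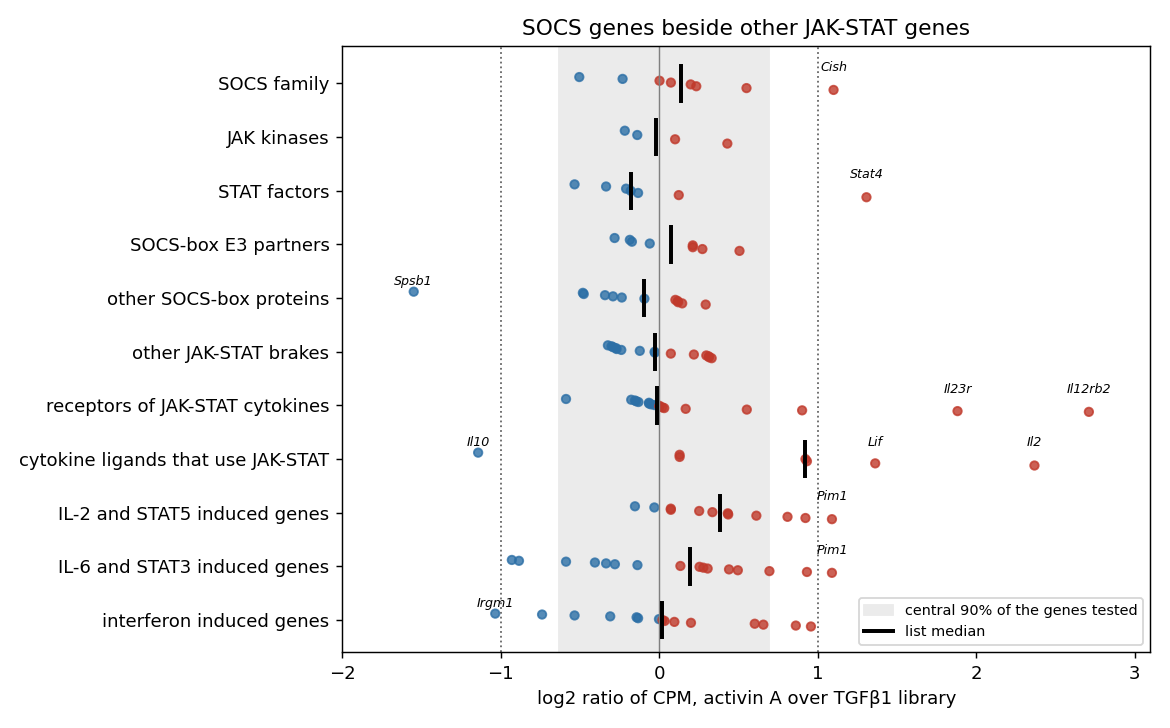
Log2 ratio of CPM (x axis, activin A over TGFβ1 library) for the SOCS genes and the measured genes of each JAK-STAT list (y axis), 1 library per condition. Points are genes (red above 0, blue below), black bars list medians, dotted lines 2-fold and the grey band the central 90% of the genes tested. Genes past 2-fold are named, and Asb2, with no count in 1 library, is left off as a point. The median bar of its list still counts Asb2 (−0.092, against −0.16 without it). The ligand list has the highest median, 0.92, and the SOCS median is 0.14.

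The depth was 30877656 counts on named genes for the activin A library and 33470161 for the TGFβ1 library. Of 6 markers of CD4 T cells, the 5 matched genes summed to 1297 and 1383 CPM. The summed markers of B cells were 0.808 and 0.180 CPM, those of myeloid cells 0.614 and 1.20, those of CD8 T cells 1.91 and 1.89, and those of red cells 1.65 and 2.18. The markers of NK cells (0.065 and 0) and dendritic cells (0.129 and 0.239) were lower. The stromal list, at 8.18 and 8.65 CPM, was all Pecam1, which T cells can also express, while Col1a1 and Col3a1 had no count. The part of other cells in the SOCS values was not tested.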

How the data were processed

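Polyadenylated RNA was captured, fragmented and copied from random primers, per the labels' protocols. The authors deposited whole-number counts per gene and FPKM values (fragments relative to transcript length and depth), 1 column per library. Per the submitters' processing notes the genome build was mm10. Which aligner, counter and annotation were used is not given in the sources used here. Of 23702 rows, 10 blank rows, 10 rows of overflowed annotation text and 1646 features with no gene name (2.50% and 2.90% of counts) were left out. Positions are from GENCODE M21 (GRCm38), counted from base 1.

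Scaling used TMM (edgeR 4.0.16, R 4.3.3), and log2 ratios of CPM used a prior count of 1. Intervals are exact 95% Clopper-Pearson intervals of the share of counts in the pathogenic library, exact Poisson intervals for an FPKM value, and conditional odds ratio intervals for pairs of genes. Reads copied by PCR and not marked with molecular identifiers are not independent, and counts of 2 were 3.88 and 4.57 times as frequent as counts of 1, so the intervals can be too narrow. With 1 library per condition, no test was run and no p-value computed. Called means past 1.5-fold or 2-fold among genes whose mean was 1 CPM or more. The members and lists were chosen with earlier results of these data known. The genes named are the 8 members, up to 3 genes of the largest ratio from each of 10 lists, and the 3 nearest in ratio to the member farthest from 1 in each direction, and a gene that this rule names is not reported here. The alternatives were DESeq2 1.42.0 size factors, unscaled totals, upper-quartile factors, totals with unnamed features, prior counts of 0.5 and 5, FPKM with a pseudocount of 0.1, a length and GC trend removed, and filters of none and 5 CPM. The calculations were tested on simulated Poisson counts, which hold counting error only, so the width of the intervals for real libraries was not tested.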

Additional observations from a re-analysis of the deposited data

How the results depend on the processing

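Under 9 alternatives per member, 8 of them planned and 1 (halved counts) added after seeing the data, 7 members stayed within their counting intervals. Halved counts changed only the interval and not the ratio, so that alternative could not move a member. Log2 ratios ranged from 1.10 to 1.12 for Cish, −0.53 to −0.43 for Socs2 and −0.086 to 0.025 for Socs3, whose sign was not determined. Socs4 left its interval once, at 0.16 with the length and GC trend removed, against 0.075. The family median stayed between 0.14 and 0.16 over 10 alternatives, of which the filters of none and 5 CPM could not change it, since all 8 members pass both. The median of the list of SOCS-box partners was −0.073 with that trend removed, against 0.077. The background depended on the filter and on that trend. Without a filter, 1914 and 1738 genes were past 1.5-fold and 1192 and 1136 past 2-fold (activin A and TGFβ1 library higher), and at a mean of at least 5 CPM the numbers were 466, 384, 96 and 101, so Cish then stood beside 1.04% of genes in its direction at 2-fold. With the length and GC trend removed, the split turned to 635 and 653 genes at 1.5-fold and 204 and 216 at 2-fold. No paired analysis was possible because each condition has 1 library, and for the same reason no replicate could be left out. Counting error is small for all 8 members, and variation between cultures is not known.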
